A study of Arabidopsis thaliana with 8 samples.

Results

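The effect of 24-epibrassinolide (EBR), a synthetic brassinosteroid, on shoot transcript levels was examined in Arabidopsis thaliana seedlings 6 h into recovery from heat. The comparison used 2 of the 8 samples of the study: seedlings that had 1 µM EBR in the medium for 21 days, and control seedlings that had 0.01% ethanol in its place. Both groups were of the Columbia ecotype and 21 days old, and both had been held at 43°C for 3 h and then returned to 22°C for 6 h. The shoot tissue of 30 or more seedlings was pooled per treatment, and each sample stands for 3 biological replicate arrays of the Affymetrix ATH1 design, per the labels. The other 6 samples are the same EBR and control pair before heat (0 h), after 1 h and after 3 h of heat, and they were used here to show where recovery differed.

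Brassinosteroids are steroid hormones that are perceived by a receptor kinase at the cell surface and act through a small family of transcription factors on genes of growth, cell walls and stress. EBR raises the heat tolerance of Arabidopsis and other plants. During recovery the chaperones made under heat decline, translation resumes, and genes of water stress, redox control and defence are reset.

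The deposited value table has 1 linear ratio per probe set and sample, read here as relative to the control of the same stage. The control columns never exceeded 1, so the EBR column divided by the control column gave the EBR effect, which is expressed below as a log2 ratio. A ratio of 1 on that scale is 2-fold. With 1 deposited value per group, the difference at recovery had no test, and a probe set was called when the EBR value was at least 2-fold above or below the control value. These ratios are a compressed scale: for probe sets in the authors' deposited tables at 0 h, 1 h and 3 h, the slope of these ratios on the authors' log2 differences was 0.671, 0.675 and 0.675, with the same sign in every one of 273, 239 and 256 probe sets. No such table was used for recovery.

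At recovery 133 of 22746 probe sets were at least 2-fold higher with EBR, which is 0.585%, and 83 were at least 2-fold lower, which is 0.365%. The higher side made up 61.6% of these probe sets, but 80.4% after quantile normalization of the stage ratios and 51.4% when the EBR column was used alone. At 0 h, 1 h and 3 h the higher side numbered 216, 154 and 186 (0.95%, 0.677% and 0.818%) and the lower side 28, 28 and 35 (0.123%, 0.123% and 0.154%), so the lower side had its largest count at recovery. That held with median centring (76 at recovery, 25 or 26 at the other stages) and with the EBR column alone (106 beside 36, 36 and 42). Quantile normalization, which gives every stage the same distribution, left 164 higher and 40 lower at each stage. No test of the difference in counts was made. The spread of the ratios over all probe sets was alike at the 4 stages, with SDs of 0.28, 0.28, 0.29 and 0.28 in order.

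Names were taken from the locus identifiers in the authors' deposited tables, which pair 692 probe sets with exactly 1 gene. Those tables hold probe sets that the authors selected for a treatment effect at 0 h, 1 h or 3 h or against the unstressed control, so a gene that responded to EBR at recovery alone is mostly without a name here. Of the 692 named genes 54 were 2-fold higher at recovery, which is 7.8%, and 19 were 2-fold lower, which is 2.75%. Among the 22013 probe sets that the tables do not list these shares were 0.35% (77) and 0.291% (64). The difference between named and unlisted probe sets follows from that selection and was not read as a result. A log2 ratio above 0 at recovery was found in 58.8% of the named genes and 42.5% of all probe sets. The median over the named genes was 0.33, 0.35 and 0.32 at 0 h, 1 h and 3 h and 0.11 at recovery. With names taken from the other stages, a median nearer to 0 at recovery is partly built into the groups below. A direction already present at those stages is likewise partly built into the counts of named members below. Those counts stand beside the shares over all named genes given here. In pooled shoots, fewer cells of a type and less RNA per cell cannot be told apart in any of the values below.

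The highest ratios belonged to genes of lipid transfer proteins, small secreted proteins that bind lipids at the cell wall and cuticle. For LTP3 (AT5G59320) the value at recovery was 0.571 in the control and 5.10 with EBR, a log2 ratio of 3.16. For LTP4 (AT5G59310) the values were 0.737 and 5.78, a log2 ratio of 2.97. LTP2 (AT2G38530) had 0.946 and 2.77, a log2 ratio of 1.55. LTP3 and LTP4 are neighbouring relatives of similar sequence, so part of the signal of one may come from the other. EARLI1 (AT4G12480), which encodes a related proline-rich protein and is known as a cold-responsive gene, had 0.994 and 2.07, a log2 ratio of 1.06. All 4 named members of the list of 10 lipid transfer genes were thus 2-fold higher, with a median log2 ratio of 2.26 at recovery against 3.20, 2.97 and 3.04 at 0 h, 1 h and 3 h. The other loci of the list were not named and not counted. Over all named genes 7.8% were 2-fold higher, and over all probe sets 0.585%. Names came from the other stages, where the median of the 4 was already high, so the count was not read as particular to recovery. The Gene Ontology term lipid transport held 10 named genes, of which 5 were 2-fold higher and none 2-fold lower. The fifth of these was AT2G37870, with values of 0.996 and 2.99 and log2 ratios of 2.57, 1.39 and 0.91 at 0 h, 1 h and 3 h and 1.59 at recovery. DIR1, a lipid transfer protein of systemic resistance, was the only one of the 10 below 0, at -0.64.

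The control arrays bear differently on these genes. Read as the gap between a geometric and an arithmetic mean, the control column gave an approximate SD of the log2 signal over the 3 control arrays of 1.87 for LTP3, 1.38 for LTP4 and 0.59 for LTP2, but 0.20 for EARLI1 and 0.16 for AT2G37870. The 3 control arrays thus differed widely for LTP3 and LTP4 and little for EARLI1 and AT2G37870. The authors' deposited control signal of AT2G37870 was low, at 19.8 at 0 h and 10.7 at 1 h. Its small SD was therefore not read as a measure of reliability. For LTP3 the log2 ratio was 2.35 with the EBR column alone and 3.80 after quantile normalization.

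**Figure D1:**
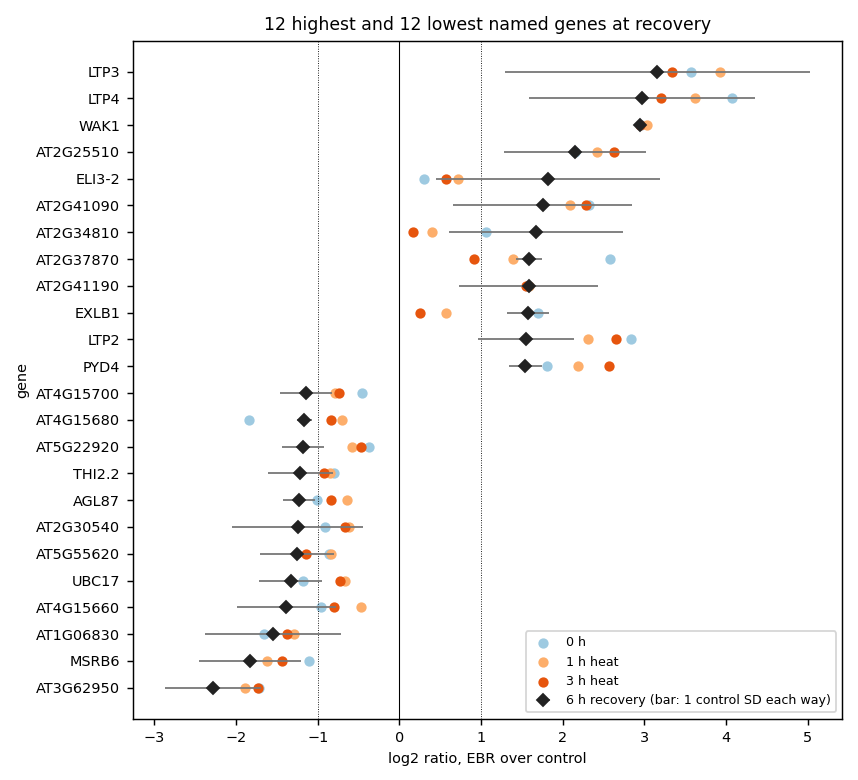
Log2 ratio of EBR over control (x axis) for the 12 named genes with the highest and the 12 with the lowest ratio at recovery (y axis). Circles are the ratios at 0 h, 1 h and 3 h, diamonds the ratio at 6 h of recovery with a bar of 1 approximate control SD each way, and dotted lines mark 2-fold; LTP3 and LTP4 have the longest bars and WAK1 one shorter than its symbol.

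The wall-associated kinase gene WAK1 (AT1G21250), whose product binds pectin fragments at the plasma membrane, had values of 1.00 in the control and 7.67 with EBR at recovery. Its log2 ratio of 2.94 stood beside 2.96, 3.04 and 2.94 at 0 h, 1 h and 3 h, and its control SD was 0.02. WAK1 thus kept nearly the same ratio at all 4 stages. Its control signal was low in the authors' deposited tables, at 10.8, 14.3 and 14.2 at 0 h, 1 h and 3 h. For LTP3 that signal was 1510, 305 and 258. A small control SD at such a low signal was not read as a measure of reliability. Of the 6 named genes in the list of salicylate and pathogen defence, 3 were 2-fold higher, beside 7.8% of all named genes. LURP1, a gene of resistance to a downy mildew, had a log2 ratio of 1.25 at recovery, and ELI3-2 (AT4G37990), which encodes an elicitor-activated alcohol dehydrogenase, had 1.82. WRKY70, a transcription factor of salicylate signalling, had 0.98 beside 2.41 at 0 h, with a control SD of 1.05. The osmotin gene OSM34 had 0.30 after 2.57 and 2.66 at 1 h and 3 h, and CBP60G, a regulator of salicylate synthesis, had 0.01. All 6 were above 0, as were 58.8% of all named genes, and they spanned the range from 0.01 to 2.94. The median of the 6 was 1.41, 1.85 and 1.84 at 0 h, 1 h and 3 h and 1.12 at recovery. Names came from those other stages, so these counts were not read as particular to recovery. PCC1, a pathogen-responsive gene, had a log2 ratio of 1.41, and TI1, a defensin-like trypsin inhibitor gene, had 1.16.

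Of 14 genes listed for jasmonate, a hormone of wounding, 2 were named, both above control. CORI3, which encodes a jasmonate-inducible lyase, had values of 0.993 and 2.79, a log2 ratio of 1.49, beside 2.01, 1.23 and 1.5 at the other stages in order. LOX2, a plastid lipoxygenase of jasmonate synthesis, had 0.77 and was under 2-fold. Of the 11 named genes with the term response to jasmonic acid 2 were 2-fold higher, CORI3 and AT2G34810, and 1 was 2-fold lower, MYB16. AT2G34810, of the berberine bridge enzyme family, had log2 ratios of 1.06, 0.40 and 0.17 at 0 h, 1 h and 3 h and 1.68 at recovery, with a control SD of 1.07. MYB16, a transcription factor of epidermal cells and cuticle, had -1.11.

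Of 37 named genes with the term transport 4 were 2-fold higher with EBR at recovery and 6 lower, with a median log2 ratio of 0.13. The term is not one of carriers alone: its lowest member was the glutaredoxin AT3G62950 at -2.28 and its highest LTP3 at 3.16. Its counts therefore overlap with those of other groups here. The carrier genes described next were picked after their values were seen and stand as single genes. AT2G41190, of an amino acid transporter family, had log2 ratios of 1.56, 1.59 and 1.55 at 0 h, 1 h and 3 h and 1.58 at recovery. SIAR1, an amino acid exporter, had 1.23, and its relatives UMAMIT28 and UMAMIT29 had 1.10 and 1.11. SAG29, a sugar exporter gene that is induced in senescence, had 1.30. SLAH3, a slow-type anion channel, had 1.31. Of 65 named genes with the term integral to membrane 9 were 2-fold higher and 1 was lower, with a median log2 ratio of 0.30 at recovery beside 0.11 over all 692 named genes. The lower one was AT1G52190, a nitrate transporter family gene, at -1.04. Of 16 named genes with the term carbohydrate metabolic process none was 2-fold apart, with a range from -0.66 to 0.83 and a median of 0.21. The following single genes were 2-fold higher and outside that term. PYD4, an aminotransferase family gene, had values of 0.993 and 2.90 (log2 ratio 1.54), APL3, a subunit of the first enzyme of starch synthesis, had 0.995 and 2.79 (1.49), and SUS3, a sucrose synthase, had 0.966 and 2.15 (1.16). SRG1, a dioxygenase gene named for senescence, had 1.49 and PAP17, an acid phosphatase gene of phosphate starvation, had 1.34. Over wider classes, 15 of 119 named genes of the endomembrane system were 2-fold higher and 7 lower, and in the extracellular region 3 of 22 were higher and 1 lower. For transporter activity 1 of 14 was higher and 1 lower, and for defense response 2 of 20 were higher and 1 lower. These counts stand beside 7.8% higher and 2.75% lower over all named genes, and nothing particular to these classes was read from them.

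Further high ratios belonged to genes of several kinds. AT2G25510 had values of 0.885 and 3.93, a log2 ratio of 2.15. AT2G41090, which encodes a calmodulin-like protein, had 0.824 and 2.78, a log2 ratio of 1.75 with a control SD of 1.10. EXLB1, of the expansin-like family of cell wall proteins, had 0.989 and 2.96, a log2 ratio of 1.58. At 0 h, 1 h and 3 h it had ratios of 1.69, 0.57 and 0.25, so the value at recovery was close to that of unstressed seedlings and above both values under heat. AT2G37870 had the same order, and so did the NF-Y transcription factor subunit gene NF-YA3, with 1.57, 0.68, 0.24 and 1.19 at the 4 stages.

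On the lower side the CC-type glutaredoxins led. These are small plant-specific proteins that use glutathione and are known as regulators of TGA transcription factors and of nitrogen signalling. For AT3G62950 the value at recovery was 0.946 in the control and 0.195 with EBR, a log2 ratio of -2.28. AT1G06830 had 0.894 and 0.306, a log2 ratio of -1.55. AT4G15660 had 0.943 and 0.361, a log2 ratio of -1.38. For these 3 genes the EBR value was the smaller by well over 2-fold, and their control SDs were 0.59, 0.84 and 0.61. AT2G30540 had a log2 ratio of -1.25, AT4G15680 had -1.17 and AT4G15700 had -1.14. AT4G15690 and AT3G62930 lay under 2-fold at -0.96 and -0.23. In all 6 of the 8 named glutaredoxins on a list of 18 were 2-fold lower and none was higher. Over all named genes 2.75% were 2-fold lower. The median log2 ratio of the 8 was -1.21 at recovery, beside -0.94, -0.66 and -0.82 at 0 h, 1 h and 3 h. Over all named genes the median at recovery was 0.11. Names came from the authors' selection at the other stages, where the median of the 8 was already below 0. The count was therefore not read as particular to recovery. AT4G15660, AT4G15680, AT4G15690 and AT4G15700 are near-identical neighbours, so their probe sets can share signal and do not count as separate observations. AT4G15680 had a control SD of 0.09, the smallest of the 6.

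The same 6 genes made up all of the 2-fold lower members of the term cell redox homeostasis, which held 11 named genes. The thioredoxin gene TRX5, in that term, had a log2 ratio of -0.26. The list of antioxidant and repair genes had 4 of 11 loci with a name, of which 2 were 2-fold lower and none 2-fold higher. MSRB6 (AT4G04840), which reduces oxidised methionine in proteins, had values of 0.940 and 0.265, a log2 ratio of -1.83, beside -1.11, -1.62 and -1.43 at the other stages. CSD2, the plastid copper/zinc superoxide dismutase, had -1.01, and CCS, the chaperone that supplies it with copper, had -0.83. Both were below control at every stage, with -0.73, -0.98 and -0.99 for CSD2 and -0.80, -0.82 and -0.85 for CCS at 0 h, 1 h and 3 h. CAT3, a catalase, was on the other side at 0.77. The term response to oxidative stress, with 8 named genes, had 5 above 0, a median log2 ratio of 0.49, and CSD2 as its 1 gene 2-fold apart.

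**Figure D2:**
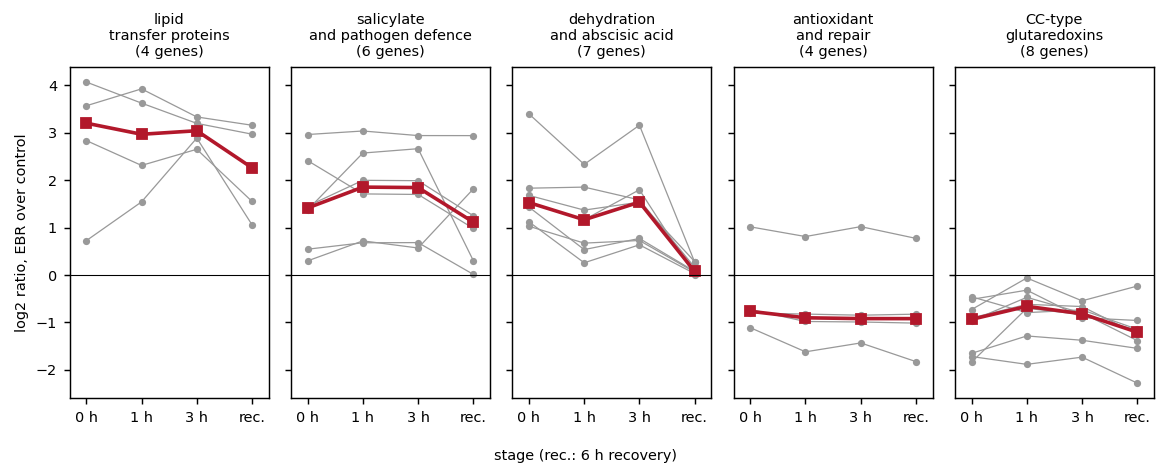
Log2 ratio of EBR over control (y axis) at 0 h, 1 h, 3 h and 6 h of recovery (x axis) for the named members of 5 gene lists. Grey lines are genes and red squares the median; the 7 dehydration genes lie between -0.01 and 0.28 at recovery, while the glutaredoxin median is -1.21 and the lipid transfer median 2.26.

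Regulators and other single genes completed the lower side. UBC17, a ubiquitin-conjugating enzyme, had values of 0.977 and 0.388, a log2 ratio of -1.33. AGL87, a MADS-box gene, had 0.994 and 0.422 (log2 ratio -1.23), AT5G55620 had 0.968 and 0.406 (-1.25), and THI2.2, a thionin, had 0.975 and 0.421 (-1.21). AT5G22920, a RING-type zinc finger gene, had -0.37, -0.58 and -0.46 at 0 h, 1 h and 3 h and -1.18 at recovery. BZO2H3, known as bZIP63, a transcription factor of the low-energy response, had -0.61, -0.59 and -0.47 and then -1.13. Of 24 named genes with the term regulation of transcription 3 were 2-fold lower, AGL87, MYB16 and P1R1 (-1.04), and none was 2-fold higher. Over all named genes 2.75% were 2-fold lower and 7.8% higher. In that term 11 genes were above 0 and 13 below, with a median log2 ratio of -0.02. No trait of regulators was read from these counts.

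Of the 54 named genes that were 2-fold higher at recovery, 22 were 2-fold higher at all of the other 3 stages as well, and all 54 had a ratio above 0 at every stage. The 22 were LTP2, LTP3, LTP4, WAK1, PYD4, SRG1, CORI3, APL3, SAG29, LURP1, TI1, COR413IM1, TBL38, LUP1, PGDH, AT2G25510, AT2G41090, AT2G41190, AT3G13672, AT1G52000, AT1G76960 and AT3G22240. A further 11 were 2-fold higher at recovery alone, and these were picked after their values were seen. They included ELI3-2 at 1.82, AT3G02910 at 1.27, the sinapate glucosyltransferase gene UGT84A2 at 1.18, AT3G15350 at 1.16 and AT1G55210 at 1.13, while RAB7A, EXO70B2, scpl35, AT1G12845, ERD7 and PLAT1 lay between 1.00 and 1.07. Being under 2-fold elsewhere is not a difference by itself, and of the 11 only ELI3-2 passed the test of recovery against the other stages. Of the 19 named genes that were 2-fold lower, 3 were so at all stages, AT3G62950, MSRB6 and AT1G06830, and 15 had their lowest ratio at recovery. These 19 were chosen for low ratios at recovery, so a lowest ratio there is partly built into the choice. Of the 54 higher genes, chosen in the same way, 15 had their highest ratio at recovery. Among the unlisted probe sets 67 of 77 higher and 54 of 64 lower ones were 2-fold apart at recovery only. The authors did not select these probe sets at the other stages, and here they were chosen at recovery. Their share at recovery only is thus largely built into the choice, and no contrast with the named genes was read from it. The highest ratio among the unlisted probe sets was that of 264400_at, at 2.39 beside 0.04, 0.31 and 0.31 at 0 h, 1 h and 3 h, with a control SD of 1.28. The lowest was that of 261684_at, at -2.69, which was 2-fold lower at every other stage too (-1.68, -1.11 and -3.0).

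Seen from the other stages, 55 named genes were 2-fold higher with EBR at all of 0 h, 1 h and 3 h, and 33 of them were under 2-fold at recovery, 11 with a log2 ratio under 0.5. These genes were chosen for high ratios at the other stages, so a smaller value at recovery is partly built into the choice. The 11 were LTI78, COR15A, PLA2A, AT3G02480, RD20, OSM34, KTI1, PR4, BGLU18, AOX1D and EDA39. PR4, a chitin-binding defence gene, had 1.36, 1.57 and 1.08 and then 0.35, and AOX1D, a mitochondrial alternative oxidase, had 1.05, 1.36 and 1.46 and then 0.45. Of the 4 named genes that were 2-fold lower at all 3 other stages, PDE340 lay at -0.41 at recovery after -1.02, -1.09 and -1.14.

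The one test that the 8 columns allow asks whether the recovery ratio departs from the mean of the other 3 stage ratios. It was fitted with limma over all 22746 probe sets, with Benjamini-Hochberg adjustment at 0.05, and recovery enters as 1 value that is assumed to vary like the others. The p-values therefore measure the spread between stages, not between seedlings or arrays. With this test 85 probe sets (0.374%) had a higher ratio at recovery and 25 (0.11%) a lower one, and 3014 had an unadjusted p under 0.05. Leaving out the 1 h ratio took these counts to 21 and 14, leaving out the 0 h ratio to 81 and 53, and leaving out the 3 h ratio to 116 and 62. Median centring gave 25 and 8, and without moderated variances none was called. The 110 probe sets had a median control SD of 0.34 at recovery, beside 0.17, 0.14 and 0.16 at 0 h, 1 h and 3 h. The part of that wider spread in the calls was not tested.

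Named genes made up 9 of the 25 lower calls, which is 1.3% of the named genes, and 7 of the 85 higher calls, which is 1.01%. Of the unlisted probe sets 15 (0.0681%) had a lower and 78 (0.354%) a higher ratio. Names come from the authors' selection at the other stages, so this split is partly built in and was not read as a result. Dehydration genes were the most frequent of the 9, within the genes that this selection allowed to be named. The late embryogenesis abundant family gene AT3G02480, of a family that protects cells in drying, had log2 ratios of 3.40, 2.33 and 3.16 at 0 h, 1 h and 3 h. Its control signal was low in the authors' deposited tables, at 15.4, 25.2 and 30.7 at those stages. At recovery its values were 0.956 and 1.15, a log2 ratio of 0.27, which was lower by -2.69 ± 0.35 (SE; limma adjusted p = 0.0366). COR15A, a plastid protein of cold acclimation, had 1.83, 1.85 and 1.58 and then 0.16, a difference of -1.59 ± 0.16 (limma adjusted p = 0.0273). COR15A was called under 8 of 9 alternative settings, with limma adjusted p from 0.0145 to 0.0412, and lost without moderated variances (adjusted p = 0.53). LTI78 (RD29A), a standard marker of drought and cold signalling, had 1.53, 1.17 and 1.80 and then -0.01 (difference -1.50 ± 0.23, limma adjusted p = 0.0452), and RD20, a calcium-binding caleosin, had 1.68, 1.37 and 1.54 and then 0.28 (difference -1.24 ± 0.17, limma adjusted p = 0.0401). After median centring AT3G02480, LTI78 and RD20 were no longer called (limma adjusted p = 0.0501, 0.0603 and 0.0501), and AT3G02480 was also lost with robust moderation (0.0536). None of the 3 was called without moderated variances, with adjusted p from 0.544 to 0.566. For these 4 genes every earlier ratio was above 1 and the recovery ratio was within 0.3 of control. The approximate SD over the recovery control arrays was 0.81 for RD20, 0.53 for AT3G02480, 0.24 for COR15A and 0.18 for LTI78.

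The list of dehydration and abscisic acid genes held 21 loci, of which 7 could be named. None was 2-fold apart at recovery. By the limma test 4 had a lower ratio there, but 1 of these, COR15A, after median centring, and the median was 0.08 beside 1.53, 1.17 and 1.54 at 0 h, 1 h and 3 h. The dehydrin genes COR47, ERD10 and ERD14, whose products are hydrophilic proteins of cold and drought, had 0.03, 0.08 and 0.06 and did not pass, with limma adjusted p from 0.125 to 0.385. Their ratios at 1 h and 3 h were already under 0.8. The term response to abscisic acid was divided. Of its 12 named genes 4 were 2-fold higher at recovery, LTP3, LTP4, CORI3 and the plastid membrane gene COR413IM1 (1.08), while LTI78, COR47, ERD14, DI21 and RD20 lay under 0.3. Its median log2 ratio was 0.56 at recovery beside 1.54, 1.30 and 1.52 at the other stages. In response to cold, with 16 named genes, 2 were 2-fold higher, AT4G30650 (1.08) and ERD7 (1.00), and the median was 0.22 beside 0.96, 0.73 and 0.69. TSPO, an abscisic acid-induced membrane protein gene outside the list, had 1.13, 1.10, 0.77 and 1.20 at the 4 stages and so did not share the values of the dehydration list.

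The other genes with a lower ratio at recovery had roles in defence, signalling and heat. KTI1, a Kunitz trypsin inhibitor, had 1.60, 1.83 and 2.02 at 0 h, 1 h and 3 h and 0.33 at recovery (difference -1.49 ± 0.18, limma adjusted p = 0.0366). BGLU18, a beta-glucosidase that can release abscisic acid from its glucose ester, had 1.80, 1.67 and 1.37 and then 0.43 (difference -1.18 ± 0.19, limma adjusted p = 0.0490), with a control SD of 0.80. PLA2A, a patatin-like lipase, had 1.39, 1.38 and 1.13 and then 0.20 (difference -1.10 ± 0.16, limma adjusted p = 0.0434). These 3 were within 1.5-fold of control at recovery. AHP4, a phosphotransfer protein of the cytokinin family of signal relays, had 1.84, 1.79 and 1.58 and then 0.67 (difference -1.07 ± 0.16, limma adjusted p = 0.0434), and it was still above control. Without the 1 h ratio none of these 4 was called (limma adjusted p from 0.0528 to 0.083), and after median centring KTI1 alone was (0.0446, the others from 0.0501 to 0.0603).

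HSF4 (HSFB1), a class B heat shock factor that represses heat genes after stress, had log2 ratios of 0.62, 0.54 and 0.57 at 0 h, 1 h and 3 h and -0.41 at recovery (difference -0.98 ± 0.14, limma adjusted p = 0.0434). Its recovery values were 0.996 in the control and 0.751 with EBR, and its control SD was 0.16. It missed the threshold after median centring (limma adjusted p = 0.0501) and without the 1 h ratio (0.063). In the authors' deposited table its log2 change at 3 h of heat in the control was 8.29. The list of heat stress regulators had 13 loci with 2 named, and the other one, HSFA4A, had 0.44 at recovery and 0.42, 0.64 and 0.71 before. The chaperone list had 34 loci with 3 named and none 2-fold apart. Hsp70-2, a cytosolic HSP70, had -0.18 at recovery and the co-chaperone J2 had -0.35, while mtHsc70-1, the mitochondrial HSP70, had 0.53. Of 7 named genes with the term response to heat 6 were below 0 at recovery and none was 2-fold apart. Below 0 were also 285 of the 692 named genes and 13074 of all 22746 probe sets. Among the 6 were GolS1, a galactinol synthase of the heat response, at -0.14 and AT2G19310, a small heat shock protein family gene, at -0.11.

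**Figure D3:**
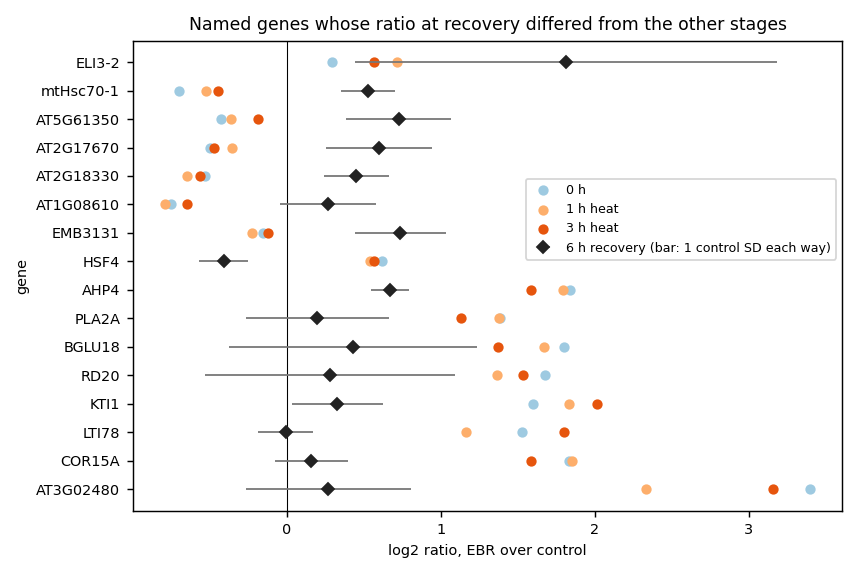
Log2 ratio of EBR over control (x axis) for the 16 named genes (y axis) whose ratio at recovery differed from the mean of the other 3 stages by limma. Circles are the ratios at 0 h, 1 h and 3 h and diamonds the recovery ratio with 1 approximate control SD each way; the 9 genes with a lower ratio lie below their other stages, and 6 of the 7 with a higher ratio pass from below to above 0.

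The 7 named genes with a higher ratio at recovery were mostly below control at the other stages. For mtHsc70-1 the log2 ratios were -0.69, -0.52 and -0.44 at 0 h, 1 h and 3 h, and the recovery values were 0.995 and 1.43 (difference 1.08 ± 0.16, limma adjusted p = 0.0434). AT5G61350, which encodes a receptor-like kinase known for root hair growth, had -0.43, -0.36 and -0.18 and then 0.73 (difference 1.05 ± 0.16, limma adjusted p = 0.0434). AT2G17670, AT2G18330 and AT1G08610 had recovery ratios of 0.60, 0.45 and 0.27 after ratios between -0.79 and -0.35, with differences of 1.04, 1.03 and 1.00 (limma adjusted p = 0.0429, 0.0422 and 0.0434). EMB3131 had -0.15, -0.22 and -0.12 and then 0.74 (difference 0.90 ± 0.14, limma adjusted p = 0.0468). These 6 turned sign, and none of them was called after median centring (limma adjusted p from 0.0501 to 0.0592) or without the 1 h ratio (0.0528 to 0.0808). ELI3-2 did not turn: its ratios were 0.30, 0.72 and 0.57 and then 1.82 (difference 1.29 ± 0.19, limma adjusted p = 0.0434), from values of 0.741 and 2.61 at recovery. ELI3-2 had a control SD of 1.37, and with the EBR column alone its ratio was 1.38 and the limma adjusted p was 0.101. Median centring gave it an adjusted p of 0.0501.

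**Figure D4:**
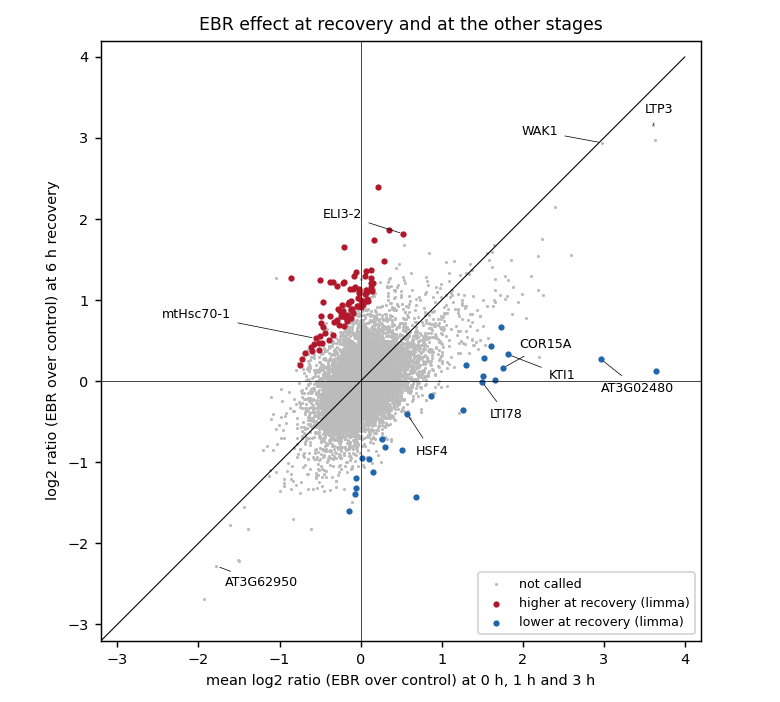
Log2 ratio of EBR over control at 6 h of recovery (y axis) against the mean of the ratios at 0 h, 1 h and 3 h (x axis) for 22746 probe sets, with the line of equal values. Red and blue points are the 85 higher and 25 lower calls of the limma test of recovery against the other stages; LTP3, WAK1 and AT3G62950 were not called and lie near the line.

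A ratio at recovery of the opposite sign to all 3 other stages was found in 3620 of 22746 probe sets, which is 15.9%, and in 110 of the 692 named genes, which is also 15.9%. The share among the named genes was thus that of the whole array. Of the 110, 44 (6.36% of the named genes) were above 0 at recovery and 66 (9.54%) below. Beyond the tested genes above, the largest were JR1, a jasmonate-induced lectin, at -0.48 and AT1G18850 at 0.43.

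The named genes of protein synthesis mostly lay slightly below control, as at the other stages. Of 13 named genes with the term translation 12 were below 0 at recovery, none was 2-fold apart, and the median log2 ratio was -0.39 beside -0.55, -0.48 and -0.48 at 0 h, 1 h and 3 h. The lowest were AT2G37600 at -0.94, AT5G56710 at -0.58 and AT3G06680 at -0.55. The one above 0, RPS2 at 0.84, is known as a disease resistance gene. All 8 named genes with the term ribosome were below 0, with a median of -0.47. Over all 692 named genes 285 were below 0, and over all 22746 probe sets 13074 were. RNA-handling groups lay nearer to control at recovery. The median was -0.02 for the 5 named genes of rRNA processing after -0.60, -0.53 and -0.49. For the 14 of RNA binding it was -0.16 after -0.52, -0.51 and -0.43. The median over all 692 named genes also moved toward 0, from 0.33, 0.35 and 0.32 to 0.11. Of the 83 named genes with the term chloroplast 3 were 2-fold higher and 1 lower, with a median of -0.07 after -0.29, -0.36 and -0.24. The 4 named genes of the response to cytokinin, all response regulators that the hormone induces, were below 0: ARR4 at -0.53, ARR7 at -0.47, RR16 at -0.33 and ARR15 at -0.32. At 0 h these 4 had a median of -1.07. Since the names come from the other stages, neither these counts below 0 nor these moves toward 0 were read as traits of the groups.

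Genes of brassinosteroid synthesis and signalling were seldom named, with 3 of 22 loci. BEE2, a growth-promoting transcription factor gene induced early by brassinosteroid, had a log2 ratio of -0.84 at recovery beside -0.83, -0.70 and -0.71. BAS1, an enzyme that inactivates brassinosteroids, had 0.04 after 0.87 at 0 h, and BRH1, a RING finger gene that brassinosteroid represses, had 0.67. None of the 3 was 2-fold apart or passed the limma test. In the list of cell wall and growth genes 3 of 8 were named, the expansins EXPA1 (-0.20) and EXPA11 (0.21) and the auxin-responsive SAUR9 (0.22). EXPA1 had been at -1.40, -0.88 and -1.02 at 0 h, 1 h and 3 h, and its difference of 0.90 did not pass (limma adjusted p = 0.12).

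Heat changes of the same genes were available from the authors' deposited table, where 3 h of heat in the control was set against the unstressed control for 671 of the named genes. Of 149 genes at least 2-fold lower under heat there, 16 (10.7%) were 2-fold higher with EBR at recovery and 2 (1.34%) 2-fold lower. Of 452 genes under 2-fold in heat, 36 (7.96%) were 2-fold higher and 15 (3.32%) lower. Over all named genes these shares were 7.8% and 2.75%, and the differences between the shares were not tested. Of 70 genes at least 2-fold higher under heat, 1 (1.43%) was 2-fold higher with EBR at recovery and 2 (2.86%) 2-fold lower. The median log2 ratios at recovery were nevertheless alike, at 0.12, 0.10 and 0.13 for genes lower, under 2-fold and higher under heat. LTP3 and LTP4 were among the first group, with heat changes of -2.90 and -1.72. The glutaredoxins AT4G15680 and AT4G15700 were in the last, with 3.05 and 1.25.

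The spread of the control arrays was wide for many of the called probe sets. The approximate control SD had a median of 0.101 over all probe sets at recovery and of 0.448 over the 216 that were 2-fold apart, of which 95 had an SD above 0.5. Of the 73 named ones 24 were above 0.5. Counting only probe sets at or below that value left 76 higher and 45 lower, and it left 2 of the 6 glutaredoxins and 2 of the 5 lipid transport genes. WAK1, PYD4, APL3, CORI3, AT2G37870 and AT4G15680 all had SDs of 0.21 or less. The authors' deposited control signal at 0 h was low for WAK1 (10.8), AT2G37870 (19.8), APL3 (20.4) and PYD4 (28.2). For AT4G15680 and CORI3 it was 139 and 152. A small SD at a low signal was not read as a measure of reliability. The tissue label could be checked only in part. Of the floral markers PI alone was named, at -0.94, and no root marker was named. Ratios do not give levels, but the authors' deposited control signal of PI was 89.8 at 0 h and 93.7 at 3 h. No signal was at hand for recovery, and the presence of floral tissue was not tested. Probes at the 3' end of the actin and GAPDH controls gave less signal, relative to those at the 5' end, with EBR than in the control at recovery (log2 differences of -0.47, -0.14, -0.16 and -0.08 in 4 pairs). At 1 h the same 4 differences were 0.47, 0.40, 0.57 and 0.29, the opposite direction, and the 1 h ratio is the one whose removal took the limma calls to 21 and 14. The part of this in the results was not tested.

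**Figure D5:**
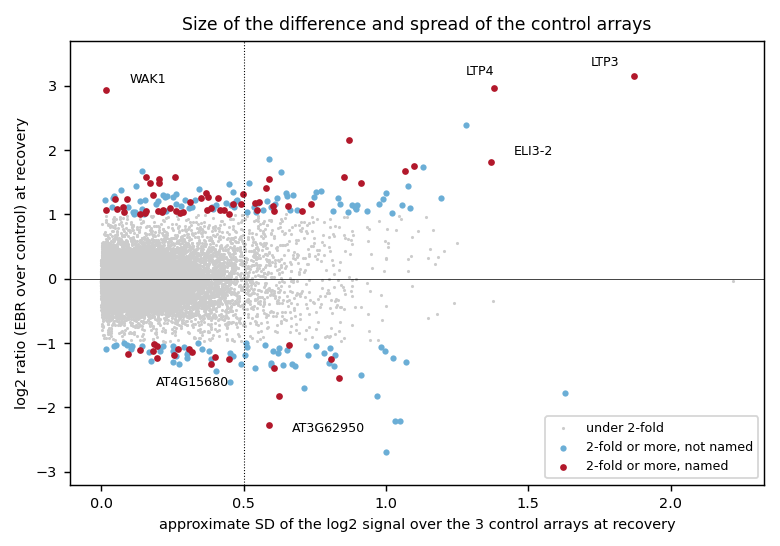
Log2 ratio of EBR over control at recovery (y axis) against the approximate SD of the log2 signal over the 3 control arrays (x axis) for all probe sets. Blue and red points are the 216 probe sets at least 2-fold apart, red those with a name, and the dotted line marks an SD of 0.5; LTP3, LTP4 and ELI3-2 lie to the right of 1 and WAK1 near 0.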

How the data were processed

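Shoot RNA was measured on ATH1 arrays in 8 groups, each with 1 deposited column for 3 arrays. MAS5 and GCRMA are named, without roles, per the submitters' processing notes; how the deposited ratio was summarised from arrays is not stated. That each ratio is relative to the control of its stage was inferred from the values. The authors' deposited tables hold intensity and log2 values per condition and fold changes; per the file headers, their entries met a corrected p of 0.05 or less for treatment in a 2-way analysis of variance and a fold of 2. Their fold changes were not used here. Their log2 values gave the heat changes and the scale check, and their intensities gave the control signals.

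From the deposited ratios the log2 of EBR over control was computed for 22746 probe sets, leaving out 11 control probe sets, with no filter on low values. Probe sets at least 2-fold apart were called. Recovery against the other 3 stages was fitted with limma 3.58.1 in R 4.3.3, with 2 residual degrees of freedom, moderated variances and Benjamini-Hochberg adjustment at 0.05, and was tested on simulated data. Tables and plots used Python 3.11.15 with pandas 2.3.3, numpy 2.4.6 and matplotlib 3.10.9. The approximate control SD rests on reading the control column as a geometric over an arithmetic mean; it covers control arrays only and is unsure where it is large. The number of arrays limits the precision.

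All 692 loci matched the TAIR10.1 RefSeq table, which gave symbols; 38 listed probe sets with several loci were left unnamed. Genes were named by rule: the 12 highest and 12 lowest ratios, up to 8 each way by the limma contrast, 6 each way with a turned sign, nameable members of 12 gene lists, and up to 4 genes per Gene Ontology group. Other genes were named after their values were seen, as were 4 Gene Ontology groups (transporter activity, integral to membrane, endomembrane system, extracellular region). The members and lists were chosen with earlier results of these data known.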

Additional observations from a re-analysis of the deposited data

Results flagged for a closer look

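For 16 named genes and 110 probe sets in all the EBR effect at recovery differed from that at the other 3 stages by the limma contrast, 85 with a higher and 25 with a lower ratio. The differences on the log2 scale were -2.69 for AT3G02480, -1.59 for COR15A, -1.50 for LTI78, -1.49 for KTI1, -1.24 for RD20, -1.18 for BGLU18, -1.10 for PLA2A, -1.07 for AHP4 and -0.98 for HSF4. On the other side they were 1.29 for ELI3-2, 1.08 for mtHsc70-1, 1.05 for AT5G61350, 1.04 for AT2G17670, 1.03 for AT2G18330, 1.00 for AT1G08610 and 0.90 for EMB3131. Of the 85 probe sets 35 were also 2-fold higher at recovery, and of the 25 the recovery ratio of 13 was smaller than 0.5 in size.

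For a further 6 named genes the ratio at recovery had the opposite sign to all 3 other stages, and this turn of sign was not tested by itself; in the limma contrast their adjusted p ran from 0.0528 to 0.277. They were JR1 at -0.48, the co-chaperone J2 at -0.35, the thioredoxin TRX5 at -0.26, AT1G16040 at -0.25, DAW1 at -0.24 and AT1G18850 at 0.43. Such a turn of sign was as frequent over the whole array as among the named genes, at 15.9%.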

How the results depend on the processing

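No paired analysis was possible because the value table has 1 column per group and the 3 arrays behind it are not separate, so the planned replicate block was not run. The counts of probe sets 2-fold higher and lower at recovery were 577 and 494 at 1.5-fold, 13 and 9 at 3-fold, and 76 and 45 where the control SD was at most 0.5. Quantile normalization gave 164 and 40 (80.39% higher), and the EBR column alone 112 and 106 (51.38% higher). Cell redox homeostasis went from 6 lower genes to 1 at 3-fold and 2 with the SD limit, lipid transport from 5 higher genes to 3 and 2, and response to abscisic acid from 4 to 2 and 2; the dehydration list stayed at 0 in all settings tried. The limma contrast called 25 higher and 8 lower probe sets after median centring, 37 and 15 with the SD limit, 81 and 53 without the 0 h ratio, 21 and 14 without the 1 h ratio, 116 and 62 without the 3 h ratio, and 106 and 16 after quantile normalization. Robust moderation gave 109 and 42, and no moderation 0 and 0 (2013 at an unadjusted p under 0.05, and 110 calls with moderated limma). Of the 16 named genes 2 were still called after median centring, 5 without the 1 h ratio and none without moderation, while 14 to 16 were called under each of the other settings that kept all genes. The direction was the same in all of these. Of 140 genes named by the rule LTI78 alone changed sign under a scaling, from -0.01 to 0.03 with median centring, both near control. The cause of these changes was not tested, except that the SD limit leaves fewer probe sets (22066). The deposited ratios hold no signal level, so dim probe sets could not be set apart at recovery. The authors' deposited intensities covered part of the named genes, at 0 h, 1 h and 3 h only. At 0 h the control signal was 10.8 for WAK1, 5.50 for LURP1, 5.15 for EXLB1, 10.5 for AHP4 and 15.4 for AT3G02480. For LTP3 it was 1510 and for CSD2 4610. How far a dim signal bears on these ratios was not tested.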
